A study of Homo sapiens with 26 samples.

Results

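Actin-binding and contractile genes were followed in 26 RNA sequencing libraries of HCT116, an established human colorectal carcinoma cell line. The 10 genes, of 58039 in the count table, were TAGLN, CALD1, MYL9, MYL2, TNNC1, TPM1, TPM2, ACTA2, CNN1 and CNN2, each found by its symbol. The list was chosen by measured values, since it was drawn up with results of the same libraries known. Those results had named MYL2 and TAGLN in the comparison of CDK8 knockout with control, and MYL2 and TNNC1 in that of CDK8 knockout with CDK19 knockout. Differences between genotypes, without or with JQ1, are therefore given as a description, with no p for a member, and no support is drawn from them. The responses to JQ1 and the differences between sublines of 1 genotype were not used to choose the genes and were tested.

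The study set unedited HCT116 against lines in which the kinases of Mediator were knocked out by CRISPR, without and with JQ1. Mediator bridges DNA-bound activators and the polymerase that makes mRNA, and either CDK8 or its paralog CDK19 serves as its kinase subunit. JQ1 is an inhibitor of bromodomains, the protein modules that read acetylated histones. The groups were unedited control cells without JQ1 (n = 3) and with it (n = 3), CDK8 knockout sublines CDK8KO-C1 and CDK8KO-C2, CDK19 knockout sublines CDK19KO-C1 and CDK19KO-C2, double knockout sublines DKO-C1 and DKO-C2 (n = 3 for each subline), and DKO-C1 given JQ1 (n = 2). Every group shares the HCT116 background. The sources used here do not give the dose and duration of JQ1, a vehicle for the untreated cells, the guides, or whether a subline is 1 clone. JQ1 was given in 1 double knockout subline only. CDK8 RNA was 50.9 CPM (counts relative to the library's scaled total) in control and 37.8 to 46.4 CPM in the untreated sublines labelled as lacking it. CDK19 RNA was 27.3 CPM in control, 18.9 to 25.4 CPM in the CDK19 knockouts and 33.2 to 38.6 CPM in the untreated double knockouts. RNA levels therefore do not show the loss of either kinase, and the genotypes are those of the labels.

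Libraries held 17700864 to 19093094 counts on genes, and 4.55% to 8.62% of these were mitochondrial. The 3 columns taken as DKO-C2 were assigned to that group by elimination, as their headers carry a clone number found in no sample title. Fold changes in double knockout and the calls from them come from the mean of both sublines unless a subline is named. They therefore use these columns. Levels of most genes of the list are also given by subline, and differences of DKO-C1 alone do not rest on the levels in these columns. 1 of the 2 JQ1 libraries of DKO-C1, here replicate a, could be matched to its group only. Epithelial markers summed to 4035 to 7726 CPM in every library, with CDX1 at 0 counts in every group but DKO-C2 and VIL1 at 0 in control. In every library 11 fibroblast and pericyte markers summed to 18.6 to 33.9 CPM, with PDGFRA and LUM at 0 in every group, and 9 endothelial and blood cell markers to 0.228 to 1.28 CPM. The libraries also hold ERCC spike-in RNA, named in the labels for control and double knockout but not for the single knockouts. Scaled to ERCC counts, the median of all genes shifted to -0.92 (log2) in double knockout, -1.23 in CDK8 knockout and -1.67 in CDK19 knockout against control, and to -0.39 with JQ1 in control and -0.27 with JQ1 in DKO-C1. All values here use TMM scaling, which holds that median near 0, and describe each gene relative to the other genes of its library. For values past the test, a direction that turns under ERCC scaling is named where it is given. ERCC counts were 1.055% to 1.252% of gene counts in control, 1.801% to 2.456% in double knockout, 2.22% to 3.381% in CDK8 knockout and 3.017% to 4.564% in CDK19 knockout. The shifts of the median follow from such shares by construction. Why the shares differed was not tested.

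In contractile cells, myosin filaments pull on actin filaments. Calcium starts this through troponin in striated muscle and through phosphorylation of the myosin regulatory light chain in smooth muscle and non-muscle cells, while tropomyosin, caldesmon and calponin lie along the actin filament and tune the interaction. Many genes of the smooth muscle set carry CArG boxes, sites of the serum response factor SRF, and MCAT elements, sites of TEAD factors. In an epithelial tumour line, non-muscle isoforms do this work, and the genes of striated muscle (MYL2, TNNC1) and of differentiated smooth muscle (CNN1, ACTA2) are not part of the usual programme.

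Promoter sequence from RefSeq (GRCh38.p14; 250 bases before to 50 after a start site) was found for 6 of the 10 genes, in 11 entries. TAGLN, MYL9, MYL2 and TNNC1 were the others. Both strands were searched for the strict CArG box, CC and GG around 6 bases of A or T, and for the MCAT element GGAATG. No window held both in these forms. CArG boxes with a G or C among the inner bases were not searched, so a window without a match may hold such a box. The 3 windows below are shown because they hold a motif: the only strict CArG box found, in CNN2, and MCAT elements in ACTA2 and CALD1. The motif is in capitals.
CNN2 promoter, chr19:1026358-1026657, + strand: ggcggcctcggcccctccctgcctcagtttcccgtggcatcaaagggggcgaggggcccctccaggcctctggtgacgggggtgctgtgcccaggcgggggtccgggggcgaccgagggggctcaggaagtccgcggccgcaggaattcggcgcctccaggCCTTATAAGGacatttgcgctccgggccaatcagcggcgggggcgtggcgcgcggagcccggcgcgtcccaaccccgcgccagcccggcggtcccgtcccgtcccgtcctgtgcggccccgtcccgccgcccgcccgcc
ACTA2 promoter, chr10:88952724-88953023, - strand: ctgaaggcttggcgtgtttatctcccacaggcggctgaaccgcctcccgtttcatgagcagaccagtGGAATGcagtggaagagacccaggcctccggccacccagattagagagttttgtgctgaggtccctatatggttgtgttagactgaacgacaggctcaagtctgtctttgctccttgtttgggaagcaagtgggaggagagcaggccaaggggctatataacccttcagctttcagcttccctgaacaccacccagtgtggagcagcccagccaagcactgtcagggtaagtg
CALD1 promoter, chr7:134779384-134779683, + strand: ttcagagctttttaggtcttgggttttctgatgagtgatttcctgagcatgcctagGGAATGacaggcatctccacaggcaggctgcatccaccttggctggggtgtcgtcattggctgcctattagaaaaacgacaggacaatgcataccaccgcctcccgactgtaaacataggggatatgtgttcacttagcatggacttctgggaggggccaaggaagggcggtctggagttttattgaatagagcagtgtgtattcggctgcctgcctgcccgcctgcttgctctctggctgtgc
The CArG box of CNN2 began 89 bases before the start site. A strict CArG box was in 454 of 35116 RefSeq promoter windows of the same length (1.29%). The MCAT elements began 183 bases before the start in ACTA2 and 194 bases before it in CALD1, a second CALD1 entry held one 42 bases before its start, and 14% of all windows held one. A match describes the letters and does not show binding.

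Of the 10 genes, 9 passed the filter on low counts, and each of these reached it in all 3 control libraries. CNN1 did not pass. CNN1 (ENSG00000130176, chr19:11538717-11550323, + strand, hg38), calponin of differentiated smooth muscle, had 32 counts in all 26 libraries together. Its mean was 0.0536 CPM in control, 0.123 CPM in DKO-C1 and 0.231 CPM in DKO-C2, and no library held more than 5 counts. It was not tested. Scaled per kilobase of exon in control, TPM2 (78.5 CPM per kb), CNN2 (55.6) and CALD1 (16.1) were the highest of the list, MYL9 stood at 12.9, and TNNC1 (1.77), MYL2 (0.845), TAGLN (0.816) and ACTA2 (0.516) were low.

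**Figure D1:**
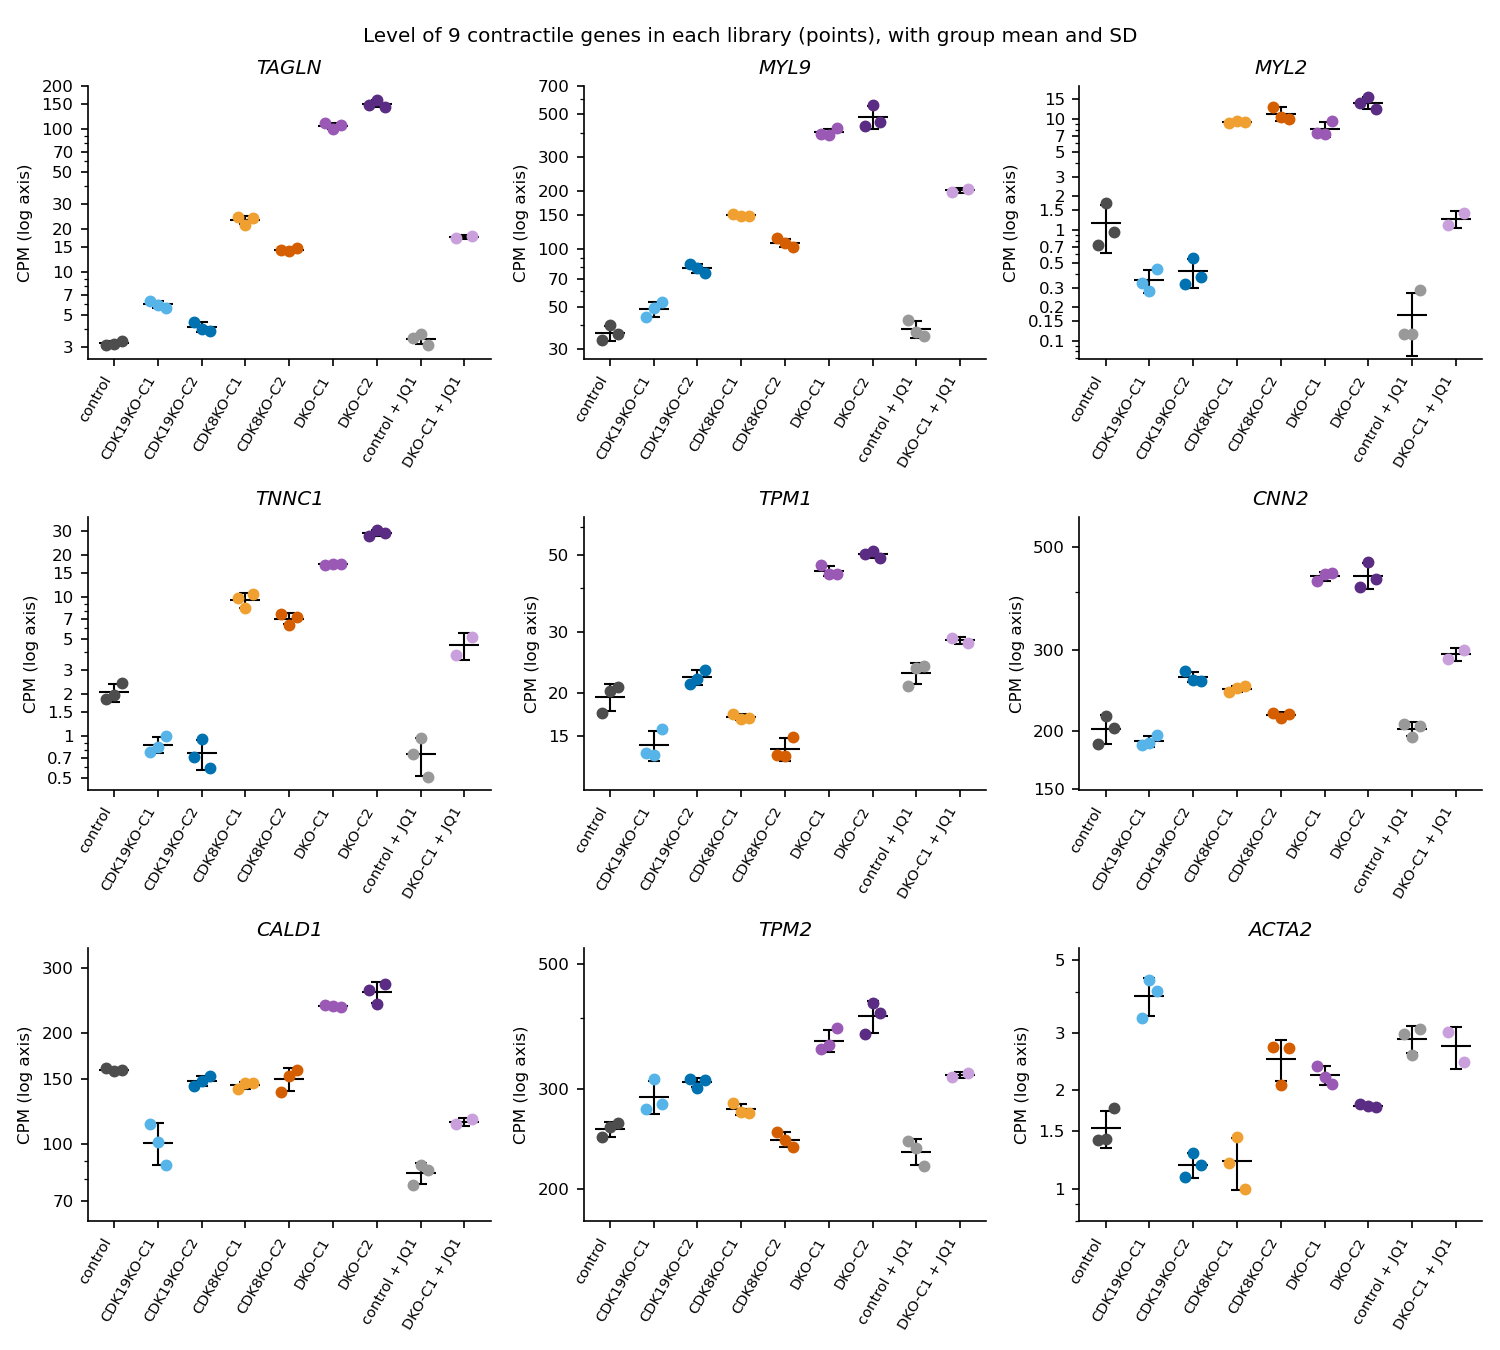
CPM of 9 genes in each library, by group, on a log axis; points are libraries and the bars show the group mean and SD. TAGLN and MYL9 were higher in order from control over CDK19 and CDK8 knockout to double knockout, while MYL2 and TNNC1 were below control in both CDK19 knockout sublines.

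TAGLN and MYL9 showed one order: lowest in control, higher in CDK19 knockout, higher again in CDK8 knockout and highest in double knockout. TAGLN (ENSG00000149591, chr11:117199321-117204782, + strand, hg38) encodes transgelin, an actin-bundling protein of smooth muscle. Its level was 3.09, 3.18 and 3.32 CPM in the control libraries, 5.68, 5.91 and 6.31 CPM in CDK19KO-C1 and 3.89, 4.04 and 4.51 CPM in CDK19KO-C2. It was 21.4, 23.8 and 24.5 CPM in CDK8KO-C1 and 14.1, 14.3 and 14.8 CPM in CDK8KO-C2. It was 101, 107 and 111 CPM in DKO-C1 and 144, 149 and 161 CPM in DKO-C2. All libraries of each genotype stood above all of the one before, with no overlap between any of these 7 untreated groups. In bulk libraries, fewer cells expressing a gene and less RNA per cell cannot be told apart, here and below. The log2 fold change against control was 5.05 ± 0.10 (SE) in DKO-C1 and 5.56 ± 0.10 in DKO-C2, and 39.6-fold for the mean of both. It was 2.86 ± 0.11 and 2.17 ± 0.11 in the CDK8 knockout sublines. In the CDK19 knockouts it was 0.90 ± 0.12 and 0.37 ± 0.13, a direction that turned to -1.01 for their mean under ERCC scaling. Of the exon bases of TAGLN, 11.4% overlap PCSK7 on the other strand, and the strand setting of the counting is not given in the sources used here.

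MYL9 (ENSG00000101335, chr20:36541484-36551447, + strand, hg38) encodes the regulatory light chain of smooth muscle myosin, the chain whose phosphorylation starts contraction. Control libraries held 33.3, 36.2 and 39.9 CPM, CDK19KO-C1 44.1, 49.0 and 52.6 CPM and CDK19KO-C2 74.6, 79.3 and 83.4 CPM. CDK8KO-C1 held 149, 149 and 151 CPM and CDK8KO-C2 102, 107 and 113 CPM. DKO-C1 held 391, 395 and 425 CPM and DKO-C2 438, 459 and 563 CPM. The groups followed the order of TAGLN but for the CDK19 knockout sublines, in which CDK19KO-C1 was the lower for MYL9 and the higher for TAGLN. The log2 fold change of MYL9 against control was 3.60 ± 0.07 in double knockout, 1.80 ± 0.07 in CDK8 knockout and 0.77 ± 0.07 in CDK19 knockout, the last turning to -0.90 under ERCC scaling. These SEs, and those of other genotype means below, rest on the spread within sublines and leave out variation between sublines.

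MYL2 and TNNC1, the genes of striated muscle, stood above control in CDK8 knockout and double knockout and below it in CDK19 knockout. MYL2 (ENSG00000111245, chr12:110910819-110920722, - strand, hg38) encodes the regulatory light chain of ventricular and slow skeletal myosin. Control libraries held 0.734, 0.963 and 1.75 CPM, and the 6 CDK19 knockout libraries 0.279 to 0.561 CPM (median 0.355). The 6 CDK8 knockout libraries held 9.10 to 12.9 CPM (median 9.79), DKO-C1 7.30, 7.46 and 9.56 CPM and DKO-C2 12.3, 13.8 and 15.8 CPM. CDK8 knockout and double knockout libraries overlapped, at a log2 difference of 0.06 ± 0.09, and both stood apart from control. Against control the log2 fold change of MYL2 was 3.14 ± 0.22 in CDK8 knockout, 3.21 ± 0.22 in double knockout and -1.56 ± 0.33 in CDK19 knockout. Its SE was the largest of the 9, and the control libraries held 14, 18 and 32 counts of it.

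TNNC1 (ENSG00000114854, chr3:52451102-52454070, - strand, hg38) encodes the calcium-binding troponin C of heart and slow muscle. It was 1.84, 1.97 and 2.41 CPM in control and 0.594 to 1.002 CPM (median 0.805) in the 6 CDK19 knockout libraries. It was 6.34 to 10.6 CPM (median 7.94) in the 6 CDK8 knockout libraries. DKO-C1 held 17.1, 17.2 and 17.5 CPM and DKO-C2 27.5, 28.8 and 30.2 CPM. Unlike MYL2, TNNC1 was higher in every double knockout library than in every CDK8 knockout library, by 1.44 ± 0.07 on the log2 scale. Against control it changed by 3.42 ± 0.14 in double knockout, 1.98 ± 0.15 in CDK8 knockout and -1.35 ± 0.20 in CDK19 knockout. The signs of MYL2 and TNNC1 against control were the same under ERCC scaling in all 3 genotypes.

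The actin filament regulators TPM1, CNN2, CALD1 and TPM2 differed by smaller steps, between 0.59 and 1.28 on the log2 scale in double knockout against control. TPM1 (ENSG00000140416, chr15:63042632-63071915, + strand, hg38), a tropomyosin that lies along actin, was 17.5, 20.2 and 20.7 CPM in control, 43.9, 44.1 and 46.7 CPM in DKO-C1 and 48.8, 50.2 and 51.3 CPM in DKO-C2. CNN2 (ENSG00000064666, chr19:1026581-1039068, + strand, hg38), the calponin of non-muscle cells, was 188, 204 and 216 CPM in control, 422, 439 and 439 CPM in DKO-C1 and 410, 428 and 465 CPM in DKO-C2. All double knockout libraries of both genes stood above all control libraries. The log2 fold change was 1.28 ± 0.06 for TPM1 and 1.10 ± 0.04 for CNN2. Under ERCC scaling these were 0.38 and 0.20, and CNN2 no longer passed the test. TPM1 was lower than control in both CDK8 knockout sublines, at -0.19 ± 0.08 and -0.50 ± 0.08. In the single knockout sublines CNN2 lay between -0.09 ± 0.05 in CDK19KO-C1 and 0.37 ± 0.05 in CDK19KO-C2. Under ERCC scaling the mean of both sublines turned to -1.52 in CDK19 knockout and -1.03 in CDK8 knockout. Genes on the other strand overlap 21.4% of the exon bases of TPM1 (TPM1-AS and AC079328.2) and 9.27% of those of CNN2 (AC011558.1).

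CALD1 (ENSG00000122786, chr7:134744252-134970728, + strand, hg38), caldesmon, which inhibits the myosin ATPase on actin, was 157, 159 and 160 CPM in control. It was 235, 237 and 239 CPM in DKO-C1 and 240, 262 and 273 CPM in DKO-C2, a log2 fold change of 0.64 ± 0.05 that turned to -0.26 under ERCC scaling. CDK19KO-C1 was the low group among untreated cells, at 87.3, 101 and 113 CPM, and CDK19KO-C2 was not, at 144, 148 and 153 CPM. TPM2 (ENSG00000198467, chr9:35681992-35690121, - strand, hg38), a second tropomyosin, was 246, 257 and 262 CPM in control and 353 to 426 CPM (median 379) in the 6 double knockout libraries. Its log2 fold change of 0.59 ± 0.04 turned to -0.31 under ERCC scaling.

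ACTA2 (ENSG00000107796, chr10:88935074-88991339, - strand, hg38), smooth muscle alpha-actin, differed more between the sublines of each single knockout than between that knockout and control. It was 1.42, 1.43 and 1.77 CPM in control, 1.78 to 2.38 CPM (median 1.95) in double knockout, 0.9997, 1.21 and 1.44 CPM in CDK8KO-C1 and 2.08, 2.69 and 2.70 CPM in CDK8KO-C2. It was 3.32, 4.01 and 4.35 CPM in CDK19KO-C1 and 1.09, 1.19 and 1.29 CPM in CDK19KO-C2. Its sign against control thus differed between the sublines of each single knockout, and its value of 0.38 ± 0.17 in double knockout turned to -0.52 under ERCC scaling. Of its exon bases, 30.1% overlap ACTA2-AS1 and FAS, both on the other strand, so their reads cannot be told apart without strand.

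Counted over the list, 8 of the 9 tested genes were called (adjusted p below 0.05, quasi-likelihood test of edgeR with Benjamini-Hochberg adjustment) in double knockout against control, all higher, beside 61.6% of all 17198 genes tested. Under ERCC scaling, 5 were called higher and 3 lower, beside 14918 of the 17198 genes. In CDK8 knockout 5 were higher and 1 lower, beside 40.5% of all genes. Under ERCC scaling 4 were higher and 5 lower, beside 16277 of the 17198. In CDK19 knockout 5 were higher and 3 lower, beside 43%. Under ERCC scaling none was higher and 9 lower, beside 16855 of the 17198. CDK8 knockout against CDK19 knockout gave 5 higher and 2 lower, beside 47.1%. Under ERCC scaling it gave 7 higher and none lower, beside 12577 of the 17198. Double knockout against CDK8 knockout gave 7 higher, beside 61.8%, and against CDK19 knockout 8 higher, beside 70.2%. As the genes were chosen with these contrasts known, nothing is read from these counts. Among fits without 1 library, ACTA2 was called in double knockout without control replicate 3, and in CDK8 against CDK19 knockout without CDK8KO-C1 replicate 2 or CDK19KO-C1 replicate 1. It was also called with DKO-C1 alone as double knockout, and with C1 or C2 sublines alone in CDK8 against CDK19 knockout, at -1.67 and 1.06. In CDK19 knockout the call of ACTA2 was lost without control replicate 1, control replicate 2 or CDK19KO-C2 replicate 2, that of CNN2 was lost without control replicate 1, and TPM1 gained one without control replicate 1 or CDK19KO-C1 replicate 3.

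**Figure D2:**
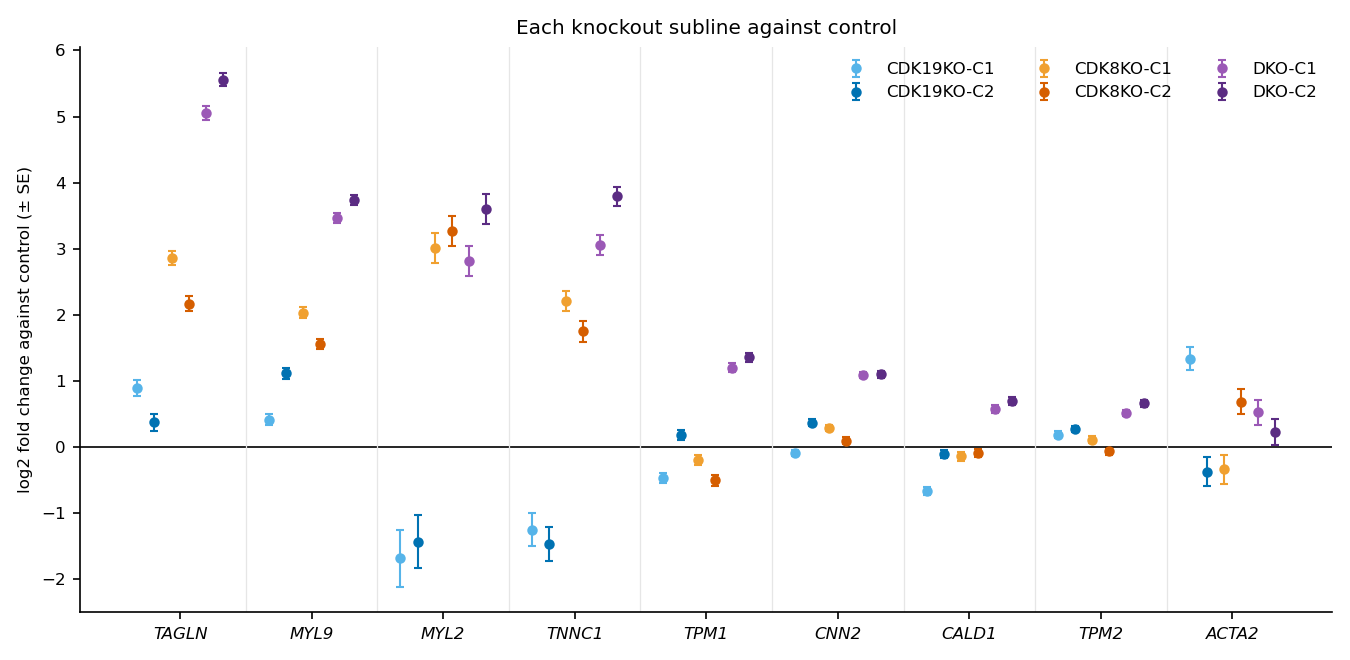
Log2 fold change of each knockout subline against control, by gene, with SE. For TAGLN, MYL9 and TNNC1 the sublines of the 3 genotypes kept to separate ranges; for ACTA2, CDK19KO-C1 was at 1.34 and CDK19KO-C2 at -0.37.

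**Figure D3:**
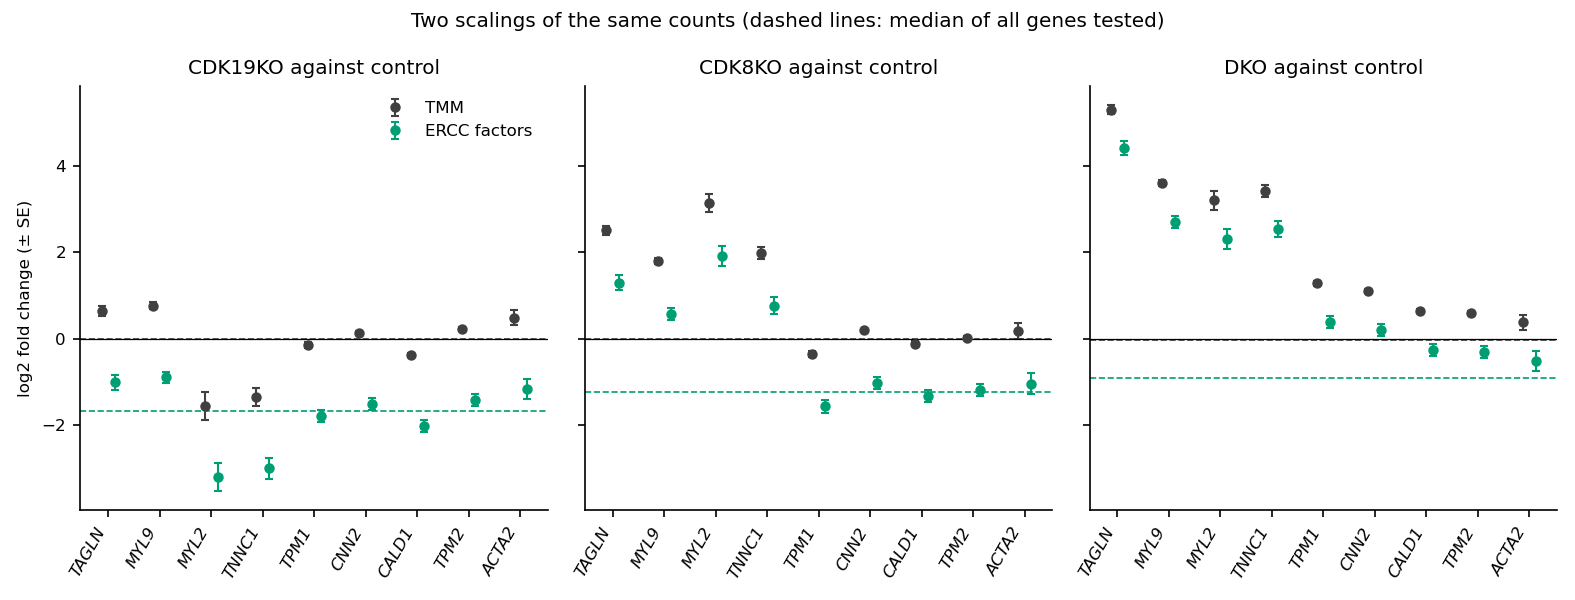
Log2 fold change against control with SE, with TMM scaling and with ERCC scaling, for the mean of both sublines; dashed lines mark the median of all genes tested. TAGLN, MYL9, MYL2 and TNNC1 in double knockout stayed above 0 under both, at 4.41, 2.70, 2.31 and 2.54 with ERCC scaling, and CALD1, TPM2 and ACTA2 did not.

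Sublines of 1 genotype were then compared with each other. DKO-C2 exceeded DKO-C1 in all 4 genes with the largest changes. The log2 difference of DKO-C1 from DKO-C2 was -0.51 ± 0.05 for TAGLN (adjusted p = 1.25e-09), -0.78 ± 0.12 for MYL2 (1.22e-05), -0.74 ± 0.08 for TNNC1 (1.83e-08) and -0.27 ± 0.07 for MYL9 (0.00673, edgeR). These 4 of 9 genes stood beside 9.42% of all genes called between the double knockout sublines. The call of MYL9 was lost without DKO-C2 replicate b (adjusted p = 0.103) and when only the libraries compared were fitted (0.0911), and TPM2 gained one without DKO-C1 replicate 3 (0.0366) or DKO-C2 replicate a (0.0114), both by edgeR. Between CDK8 knockout sublines 7 genes differed, beside 21.1% of all genes. TAGLN was higher in CDK8KO-C1 by 0.69 ± 0.07 (adjusted p = 1.23e-09, edgeR), and MYL9, TNNC1, TPM1, TPM2 and CNN2 by 0.18 to 0.48. Under ERCC scaling 3 of the 7 remained called, 2 higher and 1 lower, beside 966 of 17198 genes. The call of TPM2 was lost without CDK8KO-C1 replicate 1 (adjusted p = 0.0541) or CDK8KO-C2 replicate 3 (0.0545, edgeR).

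Between CDK19 knockout sublines 6 genes differed, beside 48% of all genes. ACTA2 was 3.26-fold higher in CDK19KO-C1 (log2 1.71 ± 0.19, adjusted p = 3.76e-10, edgeR) and TAGLN 1.44-fold higher (log2 0.52 ± 0.12, adjusted p = 0.000235). MYL9, TPM1, CALD1 and CNN2 were lower in CDK19KO-C1, by 0.46 to 0.70 on the log2 scale. ACTA2 was also the gene that differed most between the CDK8 knockout sublines, there lower in CDK8KO-C1 (log2 -1.03 ± 0.20, adjusted p = 0.00011, edgeR). TPM2 gained a call between the CDK19 knockout sublines without CDK19KO-C1 replicate 2 (adjusted p = 0.0325, edgeR). Under ERCC scaling 1 gene was called higher and 4 lower, beside 5209 of 17198 genes.

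JQ1 lowered 8 of the 9 tested genes in DKO-C1, and its effect on 4 of them was not the same as in control cells. In DKO-C1, 50.3% of all genes were called, 8.59% for the difference between the 2 responses and 56% with JQ1 in control. The comparison in DKO-C1 uses the same 3 untreated libraries of DKO-C1 as double knockout against control. A chance high value in them would raise double knockout against control and lower the JQ1 response of DKO-C1. The response of control cells likewise uses the untreated control libraries. Both sets enter the difference of responses, with signs opposite to double knockout against control, so a chance gap between them would lower that difference.

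TAGLN was 17.3 and 17.998 CPM in the JQ1 libraries of DKO-C1, against 101 to 111 CPM without it. In control cells it was 3.12, 3.49 and 3.70 CPM with JQ1 and 3.09 to 3.32 CPM without, ranges that overlapped. The log2 response was -2.59 ± 0.07 in DKO-C1 (adjusted p = 1.49e-26) and 0.11 ± 0.14 in control (0.576; -0.26 under ERCC scaling, also not called), and the difference of responses was -2.69 ± 0.15 (adjusted p = 5.14e-15, edgeR). Both JQ1 libraries of DKO-C1 still stood above every control library. MYL9 fell to 197 and 206 CPM in DKO-C1 with JQ1 and was 35.1, 37.0 and 42.8 CPM in control cells with JQ1, overlapping the range without it. Its difference of responses was -1.07 ± 0.12 (adjusted p = 1.36e-08, edgeR). Both differences held under ERCC scaling, at -2.60 for TAGLN (adjusted p = 2.77e-16) and -0.98 for MYL9 (0.00736, edgeR).

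TPM1 and CNN2 showed the same form with smaller sizes. TPM1 was 27.8 and 28.8 CPM in DKO-C1 with JQ1, a log2 change of -0.67 ± 0.07, and 21.0, 23.5 and 23.9 CPM in control with JQ1, at 0.23 ± 0.07. CNN2 was 287 and 300 CPM in DKO-C1 with JQ1, at -0.56 ± 0.05, and 195, 205 and 208 CPM in control with JQ1, within the range without it. The difference of responses was -0.89 ± 0.10 for TPM1 (adjusted p = 7.77e-08) and -0.56 ± 0.07 for CNN2 (5.83e-07, edgeR). Neither was called under ERCC scaling, at -0.79 for TPM1 (adjusted p = 0.0800) and -0.46 for CNN2 (0.628, edgeR), and the sign of TPM1 with JQ1 in control turned there to -0.14.

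MYL2, TNNC1 and CALD1 fell with JQ1 in both backgrounds. MYL2 was 0.114, 0.115 and 0.284 CPM in control with JQ1 and 1.10 and 1.41 CPM in DKO-C1 with JQ1. All of these were below the libraries of the same background without JQ1. The log2 response of MYL2 was -2.69 ± 0.58 in control (adjusted p = 6.03e-06) and -2.69 ± 0.26 in DKO-C1 (7.84e-13), with a difference of 0.01 ± 0.64 (0.983, edgeR), an SE that leaves room for unequal responses. TNNC1 was 0.511, 0.744 and 0.968 CPM in control with JQ1 and 3.83 and 5.20 CPM in DKO-C1 with JQ1. Its responses were -1.47 ± 0.26 and -1.93 ± 0.13, and the difference of -0.46 ± 0.30 was not called (adjusted p = 0.435, edgeR). CALD1 was 77.0, 84.8 and 87.7 CPM in control with JQ1 and 113 and 116 CPM in DKO-C1 with JQ1. Its responses were -0.93 ± 0.06 and -1.05 ± 0.07, with a difference of -0.11 ± 0.09 (adjusted p = 0.558, edgeR). The falls of MYL2, TNNC1 and CALD1 were called under ERCC scaling too.

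ACTA2 moved the other way in control cells, to 2.56, 2.98 and 3.07 CPM with JQ1 (log2 0.90 ± 0.18, adjusted p = 5.24e-05, edgeR), a rise that was not called under ERCC scaling (0.54, adjusted p = 0.0683). In DKO-C1 it was 2.44 and 3.01 CPM with JQ1 (0.29 ± 0.18, adjusted p = 0.206, edgeR), and the difference of responses was not called (-0.61 ± 0.26, 0.162). TPM2 changed by -0.13 ± 0.05 in control and -0.20 ± 0.06 in DKO-C1. In control, 2 genes were called higher and 4 lower. Under ERCC scaling none was higher and 5 lower there, beside 8467 of 17198 genes. With JQ1 in control and TMM scaling, the call of TPM1 was lost without control replicate 1 (adjusted p = 0.101) or control JQ1 replicate 3 (0.0519, edgeR). That of TPM2 was lost without control replicate 2 (0.0630), control replicate 3 (0.101) or control JQ1 replicate 3 (0.172, edgeR). The 8 calls in DKO-C1 and the 4 calls for the difference of responses numbered the same without any 1 library, JQ1 replicate a of DKO-C1 included, where the lone JQ1 library left is assumed to vary like the other groups.

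**Figure D4:**
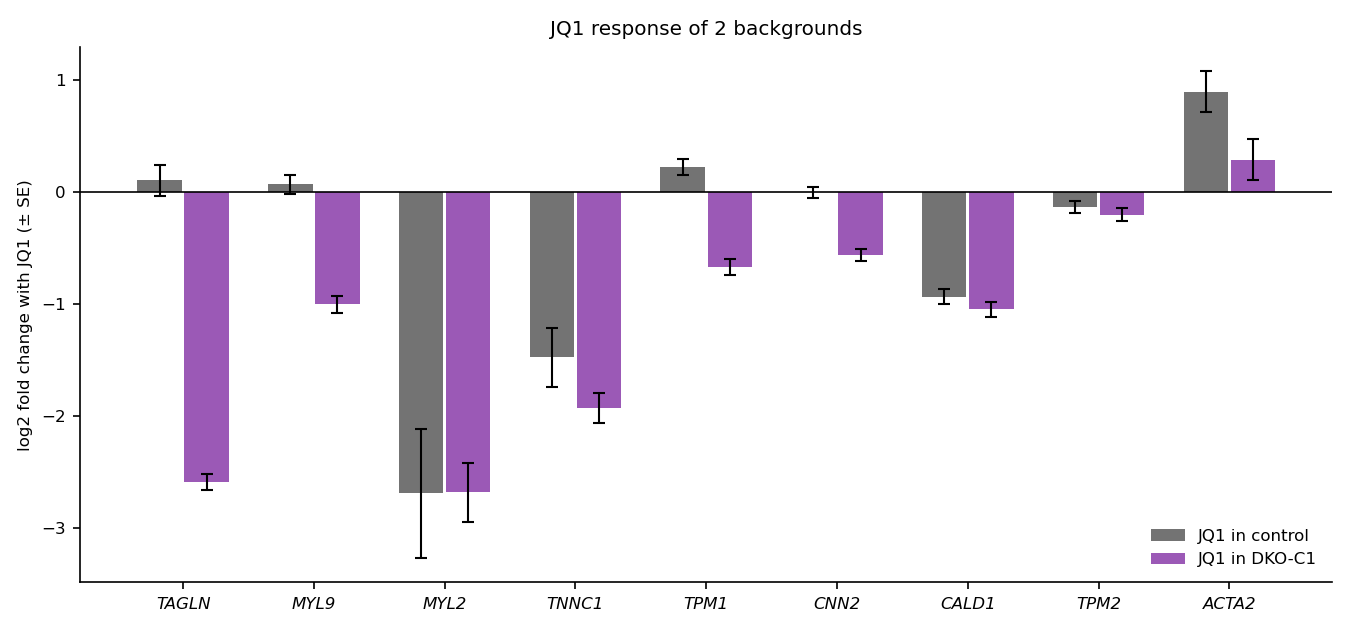
Log2 fold change with JQ1 in control cells and in DKO-C1, by gene, with SE. TAGLN and MYL9 fell in DKO-C1 and lay within 0.11 of 0 in control, whereas MYL2, TNNC1 and CALD1 fell in both.

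With JQ1 in both, DKO-C1 was compared with control, a comparison added after the data had been seen. Its 5 libraries are not in the untreated comparison, but the genes were chosen with results of these lines known. It is therefore given as a description, and nothing is read from its count of calls. 8 of the 9 genes were higher in DKO-C1, beside 46.7% of all genes called. TAGLN differed by 2.36 ± 0.11, MYL9 by 2.39 ± 0.09, MYL2 by 2.83 ± 0.59 and TNNC1 by 2.60 ± 0.26. For each of these 4, both DKO-C1 libraries stood above all 3 control libraries. Without JQ1 the differences of DKO-C1 from control were 5.05, 3.47, 2.82 and 3.05. CNN2, TPM2, CALD1 and TPM1 differed by 0.31 to 0.54, and ACTA2, which was not called, by -0.07 ± 0.18. Under ERCC scaling 4 genes were called higher and 5 lower, beside 13894 of 17198 genes called. CALD1 turned to -0.45, TPM1 to -0.60, TPM2 to -0.47 and CNN2 to -0.38, and ACTA2 was at -0.98.

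Close relatives of the 10 genes were followed as a list of 22, of which 13 were tested. In double knockout 10 were higher and none lower, with a median log2 fold change of 0.87 beside -0.02 over all genes, of which 61.6% were called. Under ERCC scaling 4 were higher and 5 lower. The tropomyosin TPM4 changed by 1.26 ± 0.04, the calponin CNN3 by 1.25 ± 0.04, the transgelin TAGLN2 by 1.14 ± 0.05 and the myosin light chain MYL6 by 1.05 ± 0.04, and these 4 stayed above 0 under ERCC scaling. MYL12A, a non-muscle regulatory light chain, changed by 0.87 ± 0.04, ACTB, cytoplasmic beta-actin, by 0.75 ± 0.05, MYL12B by 0.43 ± 0.04 and TPM3 by 0.27 ± 0.03, all turning below 0 under ERCC scaling. ACTG2, smooth muscle gamma-actin, had no count in any control library and 2.40 to 3.14 CPM in the double knockout libraries, at least 51.9-fold higher against a floor of 3 counts over the control group. With JQ1 in DKO-C1, ACTG2 was 0.274 and 0.434 CPM. ACTG1 (0.02 ± 0.05), MYL6B (0.05 ± 0.06) and MYL5 (0.23 ± 0.13) were not called in double knockout, and stood at -0.88, -0.84 and -0.66 under ERCC scaling.

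With JQ1, 8 of the 13 relatives were lower and 2 higher in DKO-C1, and 2 lower and 7 higher in control (none higher under ERCC scaling, with 8 lower in DKO-C1 and 4 in control). Of all genes, 50.3% were called with JQ1 in DKO-C1, 56% in control and 8.59% for the difference of responses. The response differed between the backgrounds for 6, all lower in DKO-C1 as for TAGLN: TPM4 (-0.77 ± 0.07, adjusted p = 6.46e-11, edgeR), MYL6, ACTB, MYL12A, CNN3 and TPM3. None of these 6 was called under ERCC scaling.

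Of 28 genes of non-muscle actomyosin, stress fibres and focal adhesions, 24 were higher and 1 lower in double knockout, beside 61.6% of all genes called. Their median was 0.58, and 4 were higher and 14 lower under ERCC scaling. With JQ1, 17 were higher and 3 lower in control (median 0.15, and 1 higher and 9 lower under ERCC scaling). In DKO-C1 with JQ1, 5 were higher and 14 lower (median -0.15, and 1 higher and 14 lower under ERCC scaling). The shares of all genes called were 56% with JQ1 in control and 50.3% in DKO-C1. The difference of responses was lower in DKO-C1 for 20 and higher for 1, beside 8.59% of all genes called. Its median was -0.37 beside 0.03 over all genes, and under ERCC scaling it was lower for 2 and higher for none. MYH9, the main non-muscle myosin heavy chain, changed by 1.17 ± 0.05 in double knockout, MYH14 by 0.69 ± 0.05 (-0.20 under ERCC scaling), and MYH10, at 0.03 ± 0.05 (-0.87 under ERCC scaling), was not called. Of 17 smooth muscle genes 11 were tested, and 8 were higher and 1 lower in double knockout, beside 61.6% of all genes called. Their median was 0.81, and 4 were higher and 4 lower under ERCC scaling. MYH11, the smooth muscle myosin heavy chain, was 1.07 CPM in control and not called (-0.14 ± 0.23), SMTN, smoothelin, changed by 0.72 ± 0.05 (-0.18 under ERCC scaling) and SYNPO2 by -0.83 ± 0.29. With JQ1, 6 of the 11 were higher and 3 lower in control, and 5 higher and 4 lower in DKO-C1. The response was lower in DKO-C1 for 5, of which none was called under ERCC scaling. These counts stand beside the same 56%, 50.3% and 8.59% of all genes. Of 32 sarcomere genes, 13 were tested, and 4 were higher and 4 lower in double knockout, beside 61.6% of all genes called. Their median was -0.19, and 1 was higher and 10 lower under ERCC scaling. MYH3 (-0.19 ± 0.15) and MYH7B (0.27 ± 0.28; -0.62 under ERCC scaling) were not called, and TNNT1, a troponin T, changed by 0.31 ± 0.04, turning to -0.59 under ERCC scaling. Of the cardiac myosin heavy chains, MYH6 had no count in any group and MYH7 had none in any untreated group, control included.

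**Figure D5:**
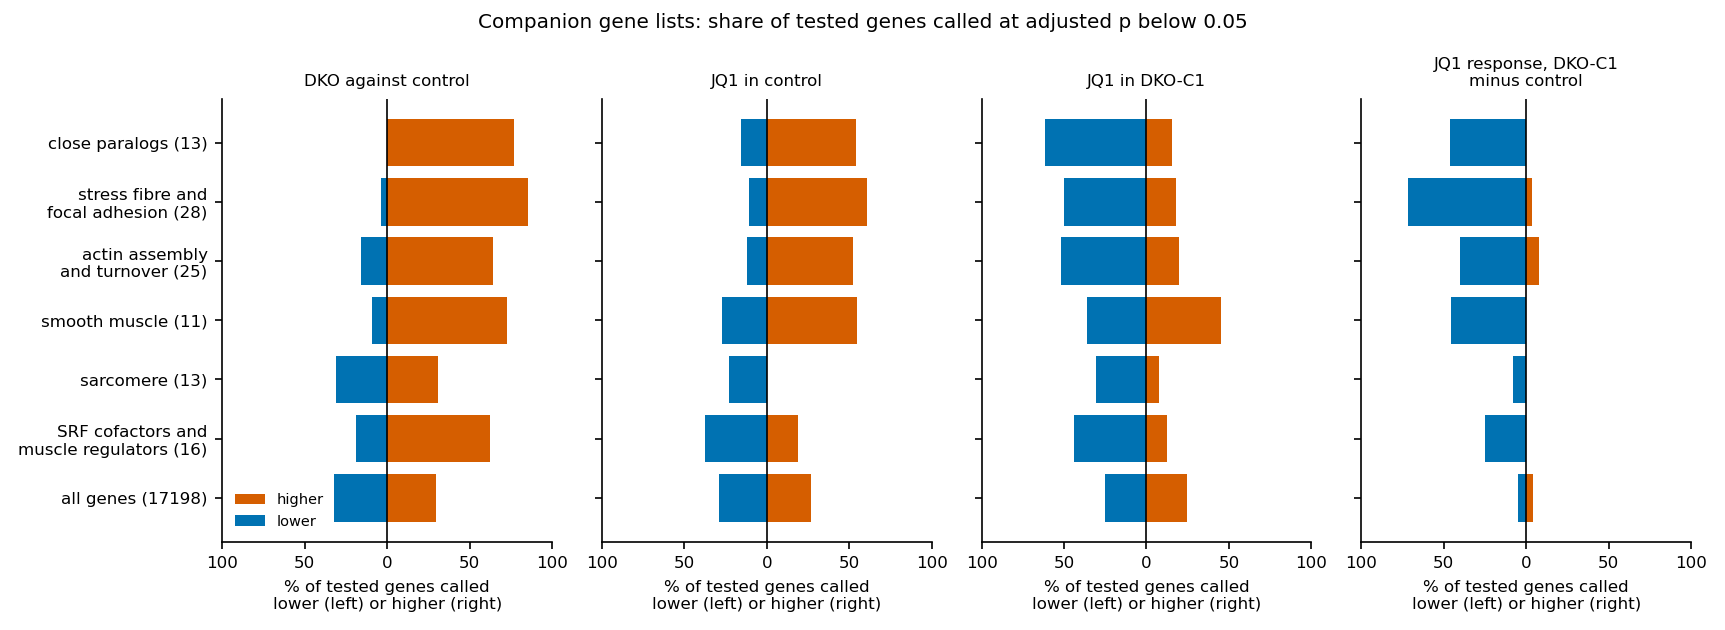
Share of tested genes called lower (left) or higher (right) in 6 companion lists and in all genes tested, for 4 comparisons, with TMM scaling. In the stress fibre list 24 of 28 genes were higher in double knockout, of which ERCC scaling left 4. For 20 the JQ1 response was lower in DKO-C1 than in control, of which it left 2. Of all genes tested, 61.6% were called in double knockout and 8.59% for the difference of responses.

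Among the factors known to drive these genes, SRF was 146 CPM in double knockout and 74.5 CPM in control (0.97 ± 0.06; 0.07 under ERCC scaling). With JQ1 it was 85.2 CPM in DKO-C1 (-0.76 ± 0.07) and 69.4 CPM in control (-0.10 ± 0.07), and the responses differed by -0.66 ± 0.10 (adjusted p = 8.46e-06, edgeR). Under ERCC scaling this difference for SRF was -0.56 and was not called. Its cofactors MKL1 (0.46 ± 0.07) and MKL2 (0.32 ± 0.05) were higher in double knockout, both turning below 0 under ERCC scaling, and a difference in their JQ1 responses was not called (0.02 ± 0.12 and 0.03 ± 0.09). MYOCD, the muscle-restricted cofactor, had no count in any untreated library and 1 count in each group given JQ1. Of the MEF2 factors, MEF2C was 18.9 CPM in control and 0.513 CPM in double knockout (-5.21 ± 0.23). MEF2A (0.22 ± 0.05) and MEF2D (0.37 ± 0.06) were higher, also turning below 0 under ERCC scaling, and MEF2B was not tested. Of the 26 regulators in this list 16 were tested, and in double knockout 10 were higher and 3 lower, beside 61.6% of all genes called. Their median was 0.29, and 1 was higher and 14 lower under ERCC scaling. Whether any of these factors acts on the genes of the list in these cells was not tested.

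Fibroblasts and pericytes also express TAGLN, MYL9, CALD1 and ACTA2. The 11 markers of these cells summed to 19.4 to 21.5 CPM in control, 18.6 to 23.9 CPM in CDK19 knockout, 21.8 to 27.5 CPM in CDK8 knockout and 26.6 to 33.9 CPM in double knockout. Over the same groups TAGLN went from 3.20 to 129 CPM. PDGFRA and LUM were at 0 counts in every group, and 3 of the 11 were tested, of which 2 were higher and 1 lower in double knockout, beside 61.6% of all genes called. Under ERCC scaling these 3, COL3A1, COL1A1 and RGS5, were at 2.63, -0.07 and -1.72 on the log2 scale, beside a median of -0.92 over all genes. The part of such cells in the results was not tested.

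The 9 tested genes were also compared with one another and with 10653 named genes over the 9 group means of log2 CPM, as a description; the points share libraries and scaling. TAGLN lay closest to MYL9 (Pearson's r = 0.963), and MYL2 to TNNC1 (0.947). ACTA2 correlated negatively with all 8 others, between -0.06 and -0.47. Outside the list, CNN2 was most like ACTN1, a stress fibre actinin (r = 0.995), and TPM1 was most like TPM4 (0.966). The 3 most alike genes were ZFAND2A, MSLN and FRMD3 for TAGLN (0.959 to 0.961), FBLN1, LIMS2 and ERCC2 for MYL9 (0.978 to 0.987), KIF24, DLG4 and TESC for MYL2 (0.965 to 0.980) and KLF7, ADGRG6 and FLOT1 for TNNC1 (0.976 to 0.983). They were NEK6, ARID1A and IFITM2 for CALD1, TPM4, MSRA and CAP1 for TPM1, HPS5, ALDH7A1 and CCDC167 for TPM2, TJP3, GSTP1 and ABHD4 for ACTA2, and ACTN1, SHCBP1 and TADA3 for CNN2.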

How the data were processed

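RNA of 26 HCT116 libraries was isolated with a column kit and read as 100-base pairs, per the labels' protocols. The deposited table holds raw counts per gene, made by the authors with STAR 2.5.2 and featureCounts of Subread 1.6.3 on hg38, per the submitters' processing notes. The strand setting is not given in the sources used here. Libraries held 17700864 to 19093094 counts on genes, which is their depth. The members and the companion lists were chosen with earlier results of these data known.

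Counts of 17198 of 58039 genes passed filterByExpr (minimum count 10, minimum total 15) and were fitted with the quasi-likelihood test of edgeR 4.0.16 (R 4.3.3) over all 26 libraries and 9 groups, with TMM factors of 0.956 to 1.02. Genotype effects are means of both sublines. Tests were two-sided, and p-values were adjusted over all genes tested by Benjamini-Hochberg, with a threshold of 0.05. The errors are model-based SEs. They rest on the spread of libraries within a group, so SEs and calls of a genotype leave out variation between its sublines. Means are in CPM. The 92 ERCC spike-ins stayed out of library sizes and tests.

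The labels do not say that replicates were separate cultures, so p-values measure the spread between these samples. The 25 pairs of libraries within a group differed beyond sampling noise (chi-square per degree of freedom 1.39 to 12.3), and none was merged. Same-numbered libraries did not deviate together (0 of 63 pairs had r above 0.1). Scripts were tested on simulated data. Named genes were all 10 members, their close paralogs reaching 1 CPM in a group mean, SRF, MKL1, MKL2, MYOCD and MEF2A to MEF2D, the first 3 tested genes of each other list (1 list is not reported here), the 3 genes most alike to each member, and CDK8 and CDK19. PDGFRA, LUM, CDX1, VIL1, MYH6 and MYH7 are also named, for their 0 counts. Promoters are from RefSeq (GRCh38.p14), and gene positions and exon overlaps from GENCODE on hg38. Alternatives were DESeq2 1.42.0, its size factors, limma 3.58.1 voom, ERCC factors, other filters, other library sets and a replicate block.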

Additional observations from a re-analysis of the deposited data

Results flagged for a closer look

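Differences between responses or sublines that passed the test (edgeR, Benjamini-Hochberg adjusted p below 0.05) are gathered here as log2 values, each tested as a difference in its own right. The JQ1 response of DKO-C1 differed from that of control by -2.69 for TAGLN, -1.07 for MYL9, -0.89 for TPM1 and -0.56 for CNN2, lower in DKO-C1 for all 4. TPM1 and CNN2 were not called when libraries were scaled to ERCC counts.

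CDK8KO-C1 differed from CDK8KO-C2 by 0.69 for TAGLN, 0.48 for MYL9, 0.45 for TNNC1, 0.31 for TPM1, 0.18 for TPM2, 0.19 for CNN2 and -1.03 for ACTA2. Of these, TAGLN, MYL9 and ACTA2 were also called under ERCC scaling. CDK19KO-C1 differed from CDK19KO-C2 by 1.71 for ACTA2, 0.52 for TAGLN, -0.70 for MYL9, -0.65 for TPM1, -0.56 for CALD1 and -0.46 for CNN2, and TAGLN was not called under ERCC scaling. TAGLN and MYL9 thus differed in the same direction between the CDK8 knockout sublines and in opposite directions between the CDK19 knockout sublines. DKO-C1 differed from DKO-C2 by -0.51 for TAGLN, -0.27 for MYL9, -0.78 for MYL2 and -0.74 for TNNC1, all 4 also called under ERCC scaling, and MYL9 not called when only the libraries compared were fitted (adjusted p = 0.0911, edgeR). These tests compare sublines with 3 libraries each, not genotypes.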

How the results depend on the processing

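Of 1993 recomputed log2 values of single members, 1910 kept their side of the threshold with no sign change involving a called value, 28 lost a call, 27 gained one and 28 changed sign with the value called in the first fit, the alternative or both. Of the 1910, 30 changed sign between values not called, 5 of them with ERCC factors. With DESeq2's size factors, limma voom and a 5 CPM filter no call changed among the values run. DESeq2's own test changed 2 calls (TPM2 between the double knockout sublines was gained, adjusted p = 0.0432, and ACTA2 in CDK19 knockout lost), and the fit without a filter lost 1. Counts of called members without 1 library ranged over 6 to 6 in CDK8 knockout, 7 to 9 in CDK19 knockout and 8 to 9 in double knockout against control, 7 to 8 in CDK8 against CDK19 knockout, 7 to 7 and 8 to 8 in double against CDK8 and CDK19 knockout, 4 to 6 with JQ1 in control, 8 to 8 with JQ1 in DKO-C1, 4 to 4 for the difference of responses, 6 to 7, 6 to 7 and 3 to 5 between the CDK8, CDK19 and double knockout sublines, and 8 to 8 with JQ1 in both. With a 2-fold minimum the counts were 2 in CDK19 knockout against control, 4 in CDK8 against CDK19 knockout, 4 in double against CDK8 knockout, 2 and 5 with JQ1 in control and DKO-C1, 2 for the difference of responses, 1, 1 and 0 between the CDK8, CDK19 and double knockout sublines, and 4 with JQ1 in both. Of all 17198 genes, 664, 760, 2276, 1950, 1814, 166, 399, 1184, 152 and 2398 were called, in the same order. In the comparisons left out, this minimum changed the count of members by a smaller factor. With ERCC factors 2 remained for the difference of responses and 3 between the CDK8 knockout sublines, beside 142 and 966 of 17198 genes.

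Of these 28, signs turned with ERCC factors, as log2 values, in CDK8 knockout against control for TPM2 (-1.19), ACTA2 (-1.04) and CNN2 (-1.03), in CDK19 knockout for TAGLN (-1.01), MYL9 (-0.90), TPM2 (-1.42), ACTA2 (-1.16) and CNN2 (-1.52), and in double knockout for CALD1 (-0.26), TPM2 (-0.31) and ACTA2 (-0.52). They also turned in CDK8 against CDK19 knockout for TPM1 (0.22) and TPM2 (0.23), in double against CDK19 knockout for ACTA2 (0.64), with JQ1 in control for TPM1 (-0.14), and with JQ1 in both for CALD1 (-0.45), TPM1 (-0.60), TPM2 (-0.47) and CNN2 (-0.38). By construction the factors move all genes of a comparison by about the same amount, the shift of the median of all genes. With 1 subline in place of both, they turned for CNN2 in CDK19KO-C1 (-0.089), TPM1 (0.18) and ACTA2 (-0.37) in CDK19KO-C2, TPM1 in CDK8KO-C1 against CDK19KO-C1 (0.27), ACTA2 (1.06) and CNN2 (-0.27) in CDK8KO-C2 against CDK19KO-C2, and ACTA2 in DKO-C2 against CDK8KO-C2 (-0.47) and CDK19KO-C2 (0.59).

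Replicate numbers did not pair the libraries, and 8 of 21 lay closest to their own number. A replicate block over the 22 numbered libraries, with DKO-C1 alone as double knockout, called 6, 8 and 9 members in CDK8, CDK19 and double knockout against control, 7 in CDK8 against CDK19 knockout, 8 and 8 in double against CDK8 and CDK19 knockout, 6 and 8 with JQ1 in control and DKO-C1, 4 for the difference of responses, 7 and 6 between the CDK8 and CDK19 knockout sublines and 8 with JQ1 in both. In it MYL2 in double against CDK8 knockout was at -0.33. It gave no value between the double knockout sublines. Depth limits MYL2, TNNC1, TAGLN and ACTA2 in the low groups, and CNN1 throughout.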

Other observations

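Genes of actin assembly, which supply the filaments that myosin pulls on, were measured beside the contractile genes. Of 25 genes of actin assembly and turnover, 16 were higher and 4 lower in double knockout against control (median log2 fold change 0.51 beside -0.02 over all genes, of which 61.6% were called), and 2 were higher and 18 lower under ERCC scaling. PFN1, profilin, changed by 0.32 ± 0.05 and CFL1, cofilin, by 0.26 ± 0.05, both turning below 0 under ERCC scaling, and PFN2 by -0.28 ± 0.04. With JQ1, 13 of the 25 were higher and 3 lower in control (1 higher and 6 lower under ERCC scaling), and 5 were higher and 13 lower in DKO-C1 (none higher and 12 lower under ERCC scaling). Of all genes, 56% were called with JQ1 in control and 50.3% in DKO-C1. The difference of responses was lower in DKO-C1 for 10 and higher for 2, of which none was called under ERCC scaling, beside 8.59% of all genes called.

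Sarcomere genes other than MYL2 and TNNC1 were tested in 13 cases, and in CDK19 knockout against control 7 were lower and none higher (median -0.41 beside -0.02 over all genes, of which 43% were called). Under ERCC scaling 12 were lower, with a median of -2.07 beside -1.67 over all genes, of which 16855 of 17198 were called.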
